A study of Mus musculus with 4 samples.

Results

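The inner root sheath is the hollow cylinder of keratinocytes that encases and molds the growing hair shaft. Its members were taken here as barcodes with UMIs (unique molecular identifiers, each marking 1 captured transcript) of at least 3 of the 6 genes Krt71, Krt25, Krt27, Krt28, Krt73 and Tchh. A member also had to hold more UMIs of these 6 together than of the 6 hair keratins Krt35, Krt31, Krt33a, Krt33b, Krt36 and Krt86, and no UMI of the endothelial gene Pecam1 or the leukocyte gene Ptprc. By this rule 914 of 93602 kept barcodes were members. SAR131675 contributed 412 of them, control diet 152, LNR 92 and sham 258. Because the cells were chosen by their UMIs of these 6 genes, the values of the 6 below are a description and carry no test.

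Digit tips were profiled by droplet-based 3′ scRNA-Seq in 4 libraries, 1 per condition, each pooling hindlimb digits 2 to 4 of 10 female C57BL/6 mice (C57BL/6J in the methods) aged 6 to 8 weeks. All mice had regenerating P3 digits (the terminal phalanx) after amputation, and the labels list no transgene or engineered allele. The methods amputate P3 on digits 2 and 4 and pool digits 2 to 4, so the pools may hold a digit that was not amputated. In the first experiment mice ate chow with SAR131675, an inhibitor of the lymphatic receptor VEGFR3, at 30 mg/kg or control chow. The design text of the series records 8 days of diet and the methods start the chow before amputation, and the sources give either 8 or 5 days postamputation (DPA) for the harvest. In the second experiment lymph nodes were removed from 1 limb (LNR) and the contralateral limb was the sham, labeled as untreated. Digits were cut at the proximal end of the second phalanx, so follicles of the digit skin came with the tissue. The labels give every library a separate batch number, so a difference between conditions has no replicate behind it, and treatment and batch cannot be told apart.

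The sheath is known to form from the matrix of the hair bulb in concentric layers, the outer Henle layer, the Huxley layer and the cuticle, which keratinize before the hair they surround and are shed at the level of the sebaceous gland. Krt71, Krt73 and their relative Krt72 are type II keratins, and Krt25, Krt27, Krt28 and Krt26 are their type I partners. Krt73 and Krt72 are known from the cuticle, and Krt71 from all layers. Tchh encodes trichohyalin, a granule protein that peptidylarginine deiminases modify and transglutaminases then cross-link to the keratin filaments. The transcription factor Gata3 is known to be required for this lineage.

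Promoter sequence of 4 of these genes is shown because the keratins lie in clusters on 2 chromosomes and share short motifs upstream of the start. The 250 bases before the annotated start come from RefSeq on GRCm38.p6, 5′ to 3′ on the strand of the gene, and this build is not the one named for the counts. Krt71 is at chr15:101743098-101743347 and Krt73 at chr15:101802361-101802610, and Krt25 is at chr11:99322952-99323201 and Krt27 at chr11:99351119-99351368, all on the minus strand. Capitals mark AGATAA, a form of the core that GATA factors are known to bind, and TATAAA, the core of a promoter box near which RNA polymerase II begins.
Krt71: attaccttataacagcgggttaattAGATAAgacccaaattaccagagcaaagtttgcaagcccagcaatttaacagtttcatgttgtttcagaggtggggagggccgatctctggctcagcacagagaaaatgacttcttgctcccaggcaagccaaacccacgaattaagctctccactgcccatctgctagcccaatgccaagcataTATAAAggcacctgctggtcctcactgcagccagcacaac
Krt73: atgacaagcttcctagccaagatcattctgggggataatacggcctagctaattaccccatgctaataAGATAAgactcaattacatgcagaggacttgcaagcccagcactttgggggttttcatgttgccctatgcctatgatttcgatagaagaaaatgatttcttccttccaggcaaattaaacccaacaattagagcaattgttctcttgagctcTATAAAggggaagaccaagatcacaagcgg
Krt25: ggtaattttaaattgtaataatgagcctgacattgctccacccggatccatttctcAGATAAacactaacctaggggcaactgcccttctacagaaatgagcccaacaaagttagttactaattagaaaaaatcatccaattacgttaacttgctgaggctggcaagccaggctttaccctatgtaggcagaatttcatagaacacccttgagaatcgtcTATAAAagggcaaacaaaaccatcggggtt
Krt27: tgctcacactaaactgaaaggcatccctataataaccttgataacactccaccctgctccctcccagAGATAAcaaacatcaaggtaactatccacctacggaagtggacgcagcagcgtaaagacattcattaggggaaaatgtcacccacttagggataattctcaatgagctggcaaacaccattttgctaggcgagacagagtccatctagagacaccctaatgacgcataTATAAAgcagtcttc
Both strands were searched, and all matches in the 6 genes lay on the strand of the gene without overlapping each other. TATAAA was present in 5 of 6 member genes, all except Tchh, and in 12.4% of 32851 RefSeq promoters of the same length. AGATAA was present in 5 of 6, all except Krt28, and in 9.99% of those promoters. It began 225 bases before the start in Krt71, 194 in Krt25, 183 in Krt27, 182 in Krt73 and 154 in Tchh. Among the 3 hair keratins of the rule that the table holds, TATAAA was in 2 and AGATAA in 0. A match describes the letters and is no evidence of binding.

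The files held 21669 to 38464 barcodes per library with at least 500 UMIs each, and 19827 to 29076 were kept for having 200 to 5500 genes, at most 30000 UMIs and at most 10% mitochondrial UMIs. Without the upper limits on genes and UMIs, 713 instead of 412 barcodes met the member rule in SAR131675. In control diet 252 instead of 152 did, in LNR 104 instead of 92 and in sham 277 instead of 258. The limits thus took more members from the diet pair than from the LNR pair. Members were deep cells, with medians of 14789.5 UMIs in SAR131675, 12851 in control diet, 12285.5 in LNR and 13282 in sham, against 11316, 10712, 5725 and 5851 over all kept barcodes. No member barcode occurred in more than 1 library, although 210 kept barcodes were shared by the diet pair and 101 by the LNR pair. The sham members stood apart from those of LNR, the other library of their experiment. They held 2745 CPM (UMIs per 1000000 UMIs summed over the cells) of the fibroblast markers against 1328 CPM, and 308 CPM of immune markers against 70.3 CPM. At least 3 immune marker UMIs were found in 45.0% of sham members and in 4.35% of LNR members. Barcodes left out for Pecam1 or Ptprc numbered 98 in sham and 7 in LNR, and 34 and 12 in SAR131675 and control diet. The main results of the pairs are therefore given also for members with at least 20 UMIs of the 6 genes, a setting chosen once the sham values were known.

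The same 3-gene rule was applied to cells that should lack these genes, barcodes with at least 2 Pecam1 UMIs, as a measure of free RNA. In SAR131675, 9 of 1128 endothelial barcodes (0.798%, exact 95% binomial interval 0.365% to 1.51%) met it, and in LNR 1 of 810 (0.123%). In control diet 0 of 921 did, which allows a share of up to 0.326% on a floor of 3 counts and 0.400% as the exact upper bound. In sham 16 of 840 did (1.90%, 1.09% to 3.07%), at a median depth of 5148.5 UMIs against 13282 in the members. With at least 20 UMIs required as well, 3 of 840 sham endothelial barcodes (0.357%, 0.0737% to 1.04%) still met the rule. Immune barcodes, with at least 2 Ptprc UMIs, met the 3-gene rule in 5 of 1338 (0.374%, 0.121% to 0.870%) in SAR131675, 4 of 932 (0.429%, 0.117% to 1.10%) in control diet, 2 of 819 (0.244%) in LNR and 3 of 715 (0.420%, 0.0866% to 1.22%) in sham. In sham the 3 immune barcodes also held at least 20 UMIs.

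Members made up 1.42% (exact 95% binomial interval 1.28% to 1.56%) of kept barcodes in SAR131675 and 0.633% (0.536% to 0.741%) in control diet. The share was 0.464% (0.374% to 0.569%) in LNR and 1.25% (1.10% to 1.41%) in sham. In the diet pair the share was 2.24-fold higher with SAR131675, a log2 ratio of 1.16 (0.89 to 1.44), and it was 0.829% against 0.370% with at least 20 UMIs, again a log2 ratio of 1.16. The share of endothelial barcodes that met the rule was also higher there, 0.798% against 0 of 921. That of immune barcodes was 0.374% against 0.429%, from few barcodes. Any UMI of the member genes was held by 16.4% of endothelial barcodes with SAR131675 and by 7.49% with control diet. For immune barcodes these shares were 13.6% and 7.40%, so both were higher with SAR131675. The part of free RNA in the ratio was not tested. In the LNR pair the log2 ratio was -1.43 (-1.79 to -1.08), but the sham share lay below the 1.90% of sham endothelial barcodes and above the 0.420% of sham immune barcodes that met the same rule. It is therefore not read as a difference, and the part of free RNA in it was not tested. Endothelial barcodes with any UMI of the member genes made up 3.70% in LNR and 9.88% in sham. Among immune barcodes the shares were 4.27% and 9.37%. With at least 20 UMIs LNR had 0.298% and sham 0.561%, which gives a log2 ratio of -0.92 (-1.39 to -0.45). The log2 ratio was -0.50 (-1.07 to 0.06) without barcodes that held at least 3 UMIs of markers of other cells. The markers were fibroblast, endothelial, immune, melanocyte, Schwann cell and erythroid genes counted together, so a single cell type sufficed. Such barcodes are called barcodes of several cell types below, and leaving them out kept 6476 barcodes in LNR and 7899 in sham. All these intervals cover counting error only and have no replicate behind them. How many follicles each pool of digits held was not measured.

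**Figure D1:**
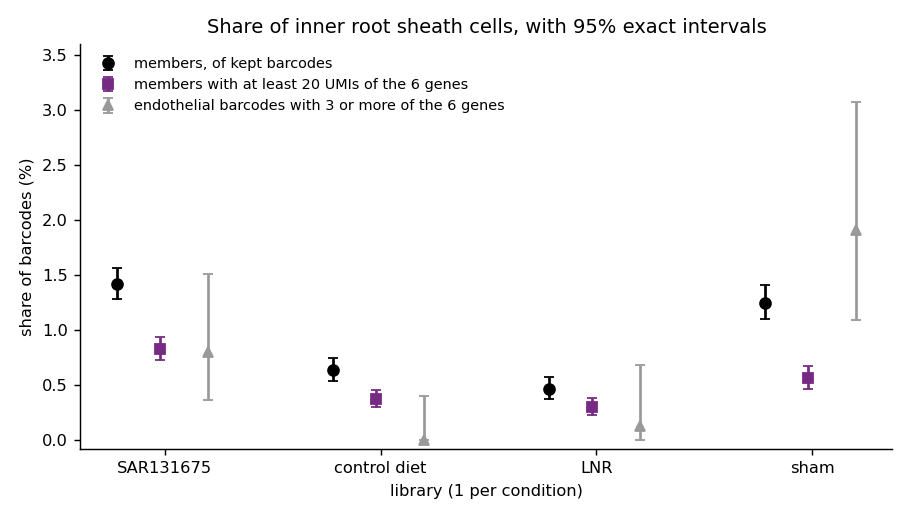
Share of barcodes (percent, y axis) in the 4 libraries (x axis), as points with exact 95% binomial intervals, for members (black circles), members with at least 20 UMIs of the 6 genes (purple squares) and endothelial barcodes that met the 3-gene rule (gray triangles). Members are at 1.42% and 0.633% in the diet pair, whereas in sham the member share of 1.25% lies below the endothelial share of 1.90%.

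The 6 genes were concentrated in the members. Of all Krt71 UMIs in the kept barcodes of a library, 86.9% to 92.1% lay in members, and for Krt25, Krt27, Krt28 and Krt73 the shares ran from 68.9% to 92%. For Tchh it was 82.4% in SAR131675, 55.1% in control diet, 64.0% in LNR and 79.4% in sham. The type II keratin Krt71 was at 5217, 4084, 2142 and 2597 CPM in the members of SAR131675, control diet, LNR and sham, in that order, which holds for all series of 4 values here. Its type I partner Krt25 was at 6210, 3933, 3567 and 3222 CPM and was detected in 84.9% to 91.3% of members. Krt73 was at 1252, 1180, 1563 and 684 CPM in 46.5% to 67.4% of members. Tchh was at 4736, 2573, 2522 and 2727 CPM, in 42.7%, 55.3%, 21.7% and 47.7% of members.

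Single members spanned more than 3 orders of magnitude. The median member held 34, 31, 47.5 and 13.5 UMIs of the 6 genes, and the highest held 13347, 5762, 3496 and 6639. As a part of all UMIs of the cell, the 6 genes made up a median of 0.338%, 0.405%, 0.413% and 0.0951% and a maximum of 46.2%, 23.7%, 13.0% and 31.7%. The 10 highest members of a library carried 54.0% to 65.5% of its member-gene UMIs, so the CPM of these genes is largely set by few cells. Under 20 UMIs were found in 41.5%, 41.4%, 35.9% and 55.0% of members.

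**Figure D2:**
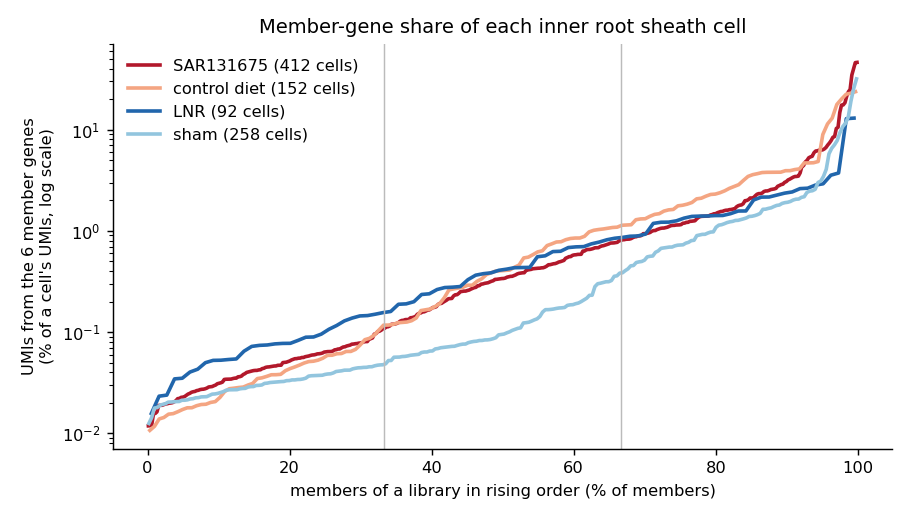
UMIs of the 6 member genes as a percent of all UMIs of a cell (y axis, log scale) for every member of a library, sorted from low to high and spread over 0% to 100% of members (x axis), with 1 line per library and gray lines at the bounds of the tertiles. Medians are 0.338%, 0.405% and 0.413% in SAR131675, control diet and LNR and 0.0951% in sham.

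At the edge of the rule, Gata3 was compared as a description between barcodes just outside, with 2 of the 6 genes, and just inside, with exactly 3. It was at 182 CPM outside and 441 CPM inside in SAR131675, 194 and 429 in control diet, 143 and 425 in LNR, and 98.2 and 142 in sham. Barcodes with 4 genes were at 821, 756, 533 and 289 CPM. The step thus lay between 2 and 4 genes in each library. Outside the rule there were 792, 344, 144 and 274 barcodes with 2 of the 6 genes, and inside it 166, 69, 33 and 106 with exactly 3. Keratin 10 of the suprabasal epidermis (Krt10) was at 5896 CPM in barcodes with 2 genes and 2033 CPM in those with 3 in SAR131675, and at 8361 and 5325 CPM in control diet. In LNR it was at 508 and 668 CPM and in sham at 3465 and 6073 CPM.

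Genes outside the rule were then ranked by their ratio of members to all other kept barcodes. The ranking was taken from these same cells, so it describes them and is no test of the name. Of all genes at 20 CPM or more in the members of each library, Prr9 had the highest ratio to all other kept barcodes. Prr9, a proline-rich gene of the epidermal differentiation complex, was at 1160, 815, 1121 and 860 CPM in members and at 4.85, 8.54, 5.31 and 8.54 CPM elsewhere. The gluconeogenic enzyme gene Fbp1 followed, at 268, 373, 257 and 164 CPM against 1.25, 0.898, 0.677 and 1.76. Crym, which encodes a thyroid hormone-binding crystallin, was at 88.6, 104, 173 and 154 CPM against 0.623, 0.644, 1.13 and 1.81. The homeobox genes Msx2 and Dlx3, the zinc transporter Slc39a8, Cux1 and Lef1 were also among the 15 highest. Of the sheath keratins that the rule did not use, Krt72 was at 3.73, 12.6, 54.0 and 107 CPM and Krt26 at 11, 4.92, 24.0 and 48.7 CPM. Krt72 was found in only 2.17% to 4.61% of members, and 1 LNR member held 98.4% of its UMIs there. Krt74 was not analysed here. Of the genes that modify or cross-link trichohyalin, 4 of 7 were higher in members than in epidermis and 1, Tgm3, was lower, as given below. The melanocyte gene Tyr was at 0 UMIs in the members of all 4 libraries.

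Members were next compared with hair shaft cells, the neighboring follicle lineage, taken as barcodes with at least 3 of the 6 hair keratins and more of their UMIs than of the 6 sheath genes. There were 57 of them (26, 9, 9 and 13 per library). These keratins are markers of the nail plate too, and digit tips hold nail. Whether nail plate cells were among the 57 was not tested. The comparison was made by edgeR's quasi-likelihood test on sums per class with library as a block, after 14 genes that define the classes were left out. Both classes were cut on keratin UMIs of these same cells, so the test says how other genes differ between keratin-defined classes and not that the classes exist. Of 7635 genes, 510 (6.68%) were higher and 395 (5.17%) lower in members at an adjusted p (Benjamini-Hochberg) under 0.05. Gata3 was at 684, 587, 515 and 245 CPM in members and 6.16, 9.26, 29.0 and 4.72 CPM in shaft cells, so the classes did not overlap, and its log2 difference was 5.44 ± 0.41 (SE, n = 4 libraries, edgeR adjusted p = 6.9e-05). Cux1, a homeodomain repressor known from the sheath, was higher by 2.65 ± 0.24 (edgeR adjusted p = 0.00021), and Dlx3 by 1.20 ± 0.33 (edgeR adjusted p = 0.046). The shaft regulator Hoxc13 was at 87.0, 76.5, 36 and 53.2 CPM in members against 1273, 917, 469 and 524 CPM, lower by a log2 difference of -3.75 ± 0.21 (edgeR adjusted p = 8.0e-06). Foxn1, mutated in nude mice, was lower by -2.31 ± 0.29, and Lef1, a mediator of Wnt signaling, by -2.21 ± 0.45, although its LNR values of 67.7 and 52.1 CPM ran the other way. Of 25 follicle regulators tested, 8 were higher and 5 lower, with a median log2 difference of 0.20 beside 0.11 over all genes. Without the SAR131675 library 56 genes were higher and 119 lower, with 27 of 43 named genes still called, and without control diet 96 and 148.

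Several shaft genes outside the rule were nearly absent from members. Of 9 further hair keratins measured, 4 could be tested and all 4 were lower, with a median log2 difference of -10.30. Krt34, Krt81 and Krt83 held 1, 3 and 1 UMIs in members, so they passed the count filter only through the shaft cells. Shaft cells were chosen by related keratins, so this direction was largely set in advance. Krt83 had 1 UMI in all members together against 446 in shaft cells, a ratio of 5678 (exact interval 1014 to 224782), and the orphan receptor gene Gprc5d had 0 UMIs, at least 730-fold lower when 3 UMIs are taken as the floor over the class. The desmosomal cadherin of hair, Dsg4, was at 8.47, 10.9, 0 and 2.80 CPM in members against 569, 593, 52.1 and 80.2 CPM (-5.89 ± 0.37). In the other direction, Slc39a8 had 1954 UMIs in members and none in shaft cells, at least 51.2-fold higher on the same floor, and Krt23 at least 22.6-fold. Fbp1 had a single UMI in shaft cells, for a ratio of 248 (44.4 to 9781). Krt75, the keratin of the companion layer next to the sheath, had 2449 UMIs in members and 2 in shaft cells, a ratio of 96.2 (26.6 to 795). Slc39a8, Krt23, Fbp1 and Krt75 could thus pass the count filter only through the members, and Gprc5d only through the shaft cells.

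Prr9 did not separate the classes. It was at 285, 0, 180 and 2294 CPM in shaft cells, with a log2 difference of 1.78 ± 0.88 (edgeR adjusted p = 0.23). Of 18 cell division genes 12 were higher in members and 0 lower, with a median log2 difference of 2.43. Mki67, a marker of cycling cells, was at 466, 526, 319 and 149 CPM against 22.6, 9.26, 52.1 and 84.9. The deiminase gene Padi3 had a log2 difference of 1.73 ± 0.66 (edgeR adjusted p = 0.13). In signaling, Wnt5a was higher by 2.10 ± 0.39, and Wnt3 (-3.90 ± 0.38) and Wnt10a (-2.21 ± 0.46) were lower. Jag1, a Notch ligand, was the only one of 7 Notch genes called, and it was lower by -1.27 ± 0.30. Of 6 fibroblast markers 3 were higher in members, and of 3 erythroid markers 3, and their part in these differences was not tested.

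**Figure D3:**
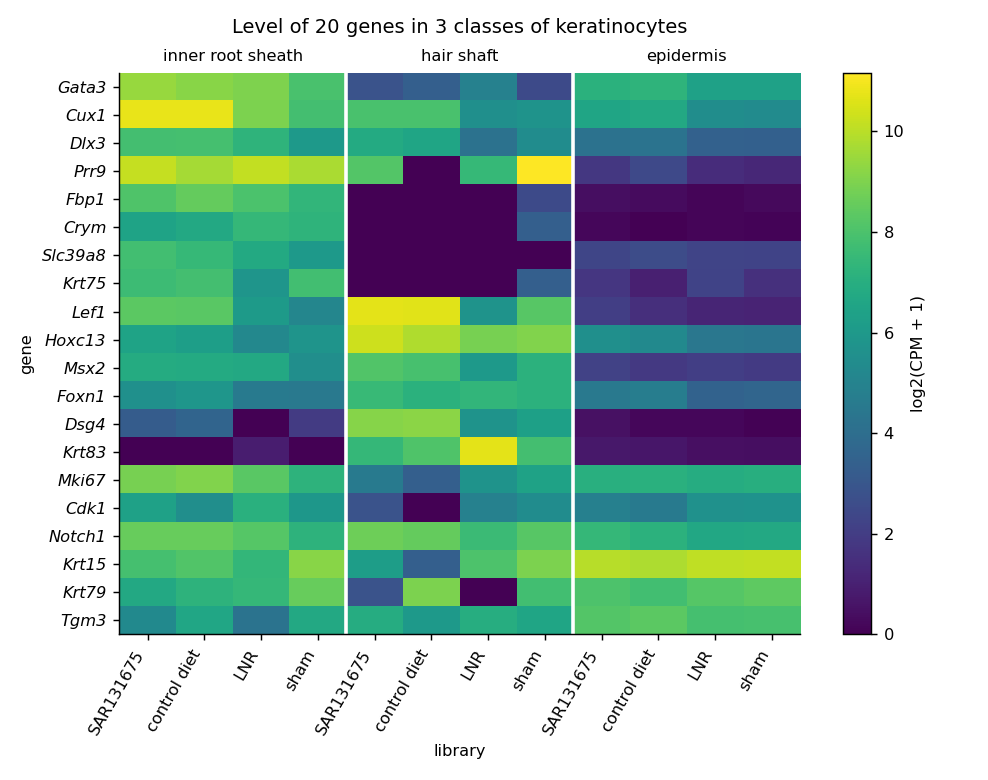
Heat map of log2(CPM + 1) (color scale) for 20 genes (rows) in the inner root sheath, hair shaft and epidermal classes of the 4 libraries (columns). Gata3 is at 245 CPM or more in every member column and at 29.0 CPM or less in every hair shaft column, and Hoxc13 runs the other way.

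Against 30075 epidermal keratinocytes, 2036 of 15311 genes (13.3%) were higher and 2518 (16.4%) lower in members. These cells held no UMI of the 6 genes, were not hair shaft cells and had at least 1% of their UMIs from Krt5, Krt14, Krt1, Krt10, Krt2 and Krt77, and these 6 epidermal keratins were left out of the test as well. Members held UMIs of at least 3 of the 6 genes and the epidermal cells none. The direction of genes that go with the 6, such as other sheath keratins, was therefore largely set by the rules. The same holds for genes that go with the 6 epidermal keratins, since these chose the epidermal cells. Sheath keratins outside the rule and the companion layer keratin Krt75 were higher, Krt72 by a log2 difference of 8.93 ± 0.90 (SE, n = 4 libraries), Krt26 by 9.17 ± 0.61 and Krt75 by 6.14 ± 0.64. Krt72 was found in few members, as given above. Of the enzymes that modify or cross-link trichohyalin, Padi3 was at 32.3, 18.6, 34.3 and 21.8 CPM in members and at most 0.0473 CPM in epidermis, a log2 difference of 9.60 ± 0.40. It was nearly absent from epidermis, so it passed the count filter only through the members and its direction was set in advance. Padi1, Tgm5 and Tgm6 were higher too. Tgm3, a transglutaminase of hair and epidermis, was lower, at 38.9, 97.9, 18 and 106 CPM against 291, 323, 234 and 238 (-2.44 ± 0.37, edgeR adjusted p = 0.0040). So 4 of 7 genes of this group were higher and 1 lower. Without the SAR131675 library 874 genes were higher and 893 lower, and without control diet 1041 and 981.

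Of 25 follicle regulators, 16 were higher and 7 lower than in epidermis, with a median log2 difference of 0.71 beside -0.03 over all genes. Gata3, which epidermis also expresses, was at 141, 152, 83.2 and 84.0 CPM there and was higher in members by 1.90 ± 0.17 (edgeR adjusted p = 0.00088). Lef1 was higher by 6.11 ± 0.43, Msx2 by 4.71 ± 0.24, Cux1 by 3.39 ± 0.30 and Dlx3 by 3.33 ± 0.20. The epidermal stem cell factor Trp63 was lower by -0.74 ± 0.11, and Sox9, of the outer root sheath, by -0.76 ± 0.23, although Sox9 in sham was at 121 CPM against 107. Of 24 genes of the Wnt, BMP and hedgehog pathways 15 were higher and 5 lower. Of the markers of other cells, 2 of 6 fibroblast (Col1a2 and Dcn), 1 of 2 endothelial (Egfl7), 0 of 5 immune and 0 of 5 erythroid markers were higher in members, and their part in these differences was not tested. Shh, the hedgehog ligand made in the hair matrix, was at 11.5, 7.11, 9.43 and 3.36 CPM in members and at most 0.0868 in epidermis. It too passed the count filter only through the members. The hedgehog target Gli1 was higher by 3.26 ± 0.34. Wnt5a was higher by 2.90 ± 0.23 and Bmp4 by 1.64 ± 0.17, while Wnt3 and Wnt4 were lower by -2.40 ± 0.27 and -0.97 ± 0.11. In the Notch group Notch1, Notch2, Notch3, Hes1 and Hes5 were higher and the ligands Jag2 and Dll1 lower, of 10 tested.

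Genes of the cornified envelope, the cross-linked shell of dead epidermal cells, were compared next. Of 18, 10 were lower and 0 higher, with a median log2 difference of -1.55. The epidermal cells were chosen by epidermal keratins, so the direction of genes that go with those keratins was largely set in advance. Flg, which encodes filaggrin, was at 242, 20.8, 1.71 and 133 CPM in members against 635, 776, 223 and 323 CPM (-3.05 ± 0.79, edgeR adjusted p = 0.026), and its relative Hrnr was lower by -3.64 ± 0.77. Of 16 desmosome genes, 10 were lower, and Dsg1c, Dsg2, Dsg4 and Pkp2 were higher. Of 20 cell division genes 15 were higher and 0 lower. Median depths were 14789.5, 12851, 12285.5 and 13282 UMIs in members against 13334, 12695.5, 9111 and 8604 in epidermis. The part that depth had in the choice of these cells was not tested. Mki67 was 132, 135, 121 and 126 CPM in epidermis, and its excess in members (1.16 ± 0.27, edgeR adjusted p = 0.018) was 149 against 126 CPM in sham.

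Within the members, the cells of each library were ranked by the share of their UMIs that came from the 6 genes and divided into tertiles. These are ranges of a score and not cell types. The lower tertile ended at 0.109%, 0.117%, 0.156% and 0.0475% and the upper tertile began at 0.815%, 1.14%, 0.884% and 0.385%. As a description of the ranking genes themselves, Krt28 was already at 961, 1283 and 1158 CPM in the middle tertile of SAR131675, control diet and LNR, against 2169, 3314 and 2143 CPM in the upper. Krt73 was likewise at 819, 1351 and 1175 CPM against 3102, 3306 and 3870. Tchh was at 63.7, 127 and 19.2 CPM in the middle tertile and at 14619, 11733 and 8585 CPM in the upper, and Krt27 was at 87.7, 141 and 158 against 3122, 3086 and 1730. In these 3 libraries the middle tertile held Krt28 and Krt73 with little Tchh RNA. Cells with many Tchh UMIs fall in the upper tertile by the ranking itself, so these values give no order of expression. Sham differed, with Krt28 at 136, Krt73 at 92 and Tchh at 205 CPM in its middle tertile.

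Between the upper and the lower tertile, 801 of 8248 genes (9.71%) were higher and 889 (10.8%) lower, by the same edgeR test. The tertiles were cut on the 6 genes, so the direction of genes that go with them was largely set by the ranking. The lower tertile held medians of 6, 4, 7 and 4 UMIs of the 6 genes. Its median depths were 16674, 16189, 12591 and 14855.5 UMIs, against 14168, 5706.5, 9095.5 and 10103.5 in the upper tertile. The ranking divides by all UMIs of a cell, so deep cells with few UMIs of the 6 genes fall in the lower tertile. The part that depth had in the choice of these cells was not tested. How many cells of the lower tertile were sheath cells was not tested. Prr9 was at 3175, 2548, 3472 and 2921 CPM in the upper tertile and at 8.12, 42.1, 0 and 12.6 CPM in the lower (7.87 ± 0.57, SE, n = 4 libraries, edgeR adjusted p = 8.0e-05). Crym differed by 8.79 ± 0.41, Fbp1 by 7.53 ± 0.40, Cryba4 by 7.27 ± 0.48 and the serine protease Prss53 by 6.66 ± 0.38. Crnn (cornulin) and the alarmin gene S100a7a had no UMI in the lower tertile of any library and were at least 151-fold and at least 87.5-fold higher in the upper. Krt72 had a single UMI in the lower tertile, for a ratio of 633 (113 to 25057). Crnn, S100a7a and Krt72 could pass a count filter only through the upper tertile, so their direction was set in advance. Padi3 was at 84.8, 71.7, 106 and 67.6 CPM in the upper tertile against 2.71, 0, 0 and 3.70 (5.24 ± 0.41), and Tgm1 and Tgm5 were higher by 3.12 ± 0.40 and 2.70 ± 0.52. Tgm3 was lower by -0.82 ± 0.22 (edgeR adjusted p = 0.028). Without the SAR131675 library 273 genes were higher and 280 lower, with 39 of 57 named genes still called.

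Of 24 follicle regulators 11 were higher and 4 lower in the upper tertile. Gata3 was at 952, 817, 560 and 491 CPM against 320, 234, 276 and 116 in the lower tertile, with no overlap (1.78 ± 0.17, edgeR adjusted p = 0.00031). In the diet pair and LNR, Gata3 was at 851, 898 and 712 CPM already in the middle tertile. Dlx3 was higher by 1.73 ± 0.24 and Foxn1 by 1.35 ± 0.21, while Cux1 did not pass (0.84 ± 0.27, edgeR adjusted p = 0.055). The factors lower in the upper tertile were Lhx2, known from follicle stem and progenitor cells (-2.26 ± 0.31), Runx1 (-1.83 ± 0.27), Barx2 and Trp63 (-1.30 ± 0.16). The stem cell receptor gene Lgr5, expressed in the lower outer root sheath and hair germ, was at 117, 79.2, 22 and 14 CPM in the lower tertile and at most 4.21 CPM in the upper.

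Cell division genes moved together in the opposite direction to the sheath genes. Of 20, 19 were lower in the upper tertile and 0 higher, with a median log2 difference of -1.89 beside 0.01 over all genes. The lower tertile was also the deeper one in each library, as given above, and the part of depth in this was not tested. Of the markers of other cells, 1 of 6 fibroblast (Dcn), 1 of 1 immune (Lyz2) and 1 of 2 Schwann cell markers (Pmp22) were lower there too, and 0 of 4 erythroid markers were called, and their part in the tertile differences was not tested. Mki67 was at 572, 521, 369 and 181 CPM in the lower, 693, 712, 480 and 150 CPM in the middle and 128, 236, 61.6 and 106 CPM in the upper tertile (-1.46 ± 0.26 between the ends, edgeR adjusted p = 0.0043). In the diet pair and LNR the middle tertile was thus above the lower one. Rrm2, which makes deoxynucleotides for replication, was lower by -3.43 ± 0.47 and the replication licensing gene Cdt1 by -3.80 ± 0.52. Desmosome genes included 8 higher and 2 lower of 12, with the plaque protein gene Dsp up by 0.79 ± 0.16. Of 8 epidermal keratins 5 were lower in the upper tertile and 1, Krt23, was higher (4.14 ± 0.23). Krt14 of the basal layer was lower by -1.75 ± 0.23 and Krt10 by -2.50 ± 0.16. The lower tertile of sham held 6728 CPM of Krt10 against 682 CPM in LNR. Among members above 0.1% of UMIs, divided at their median, 456 genes were higher and 496 lower, and 41 of 52 named genes that could be tested were called.

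**Figure D4:**
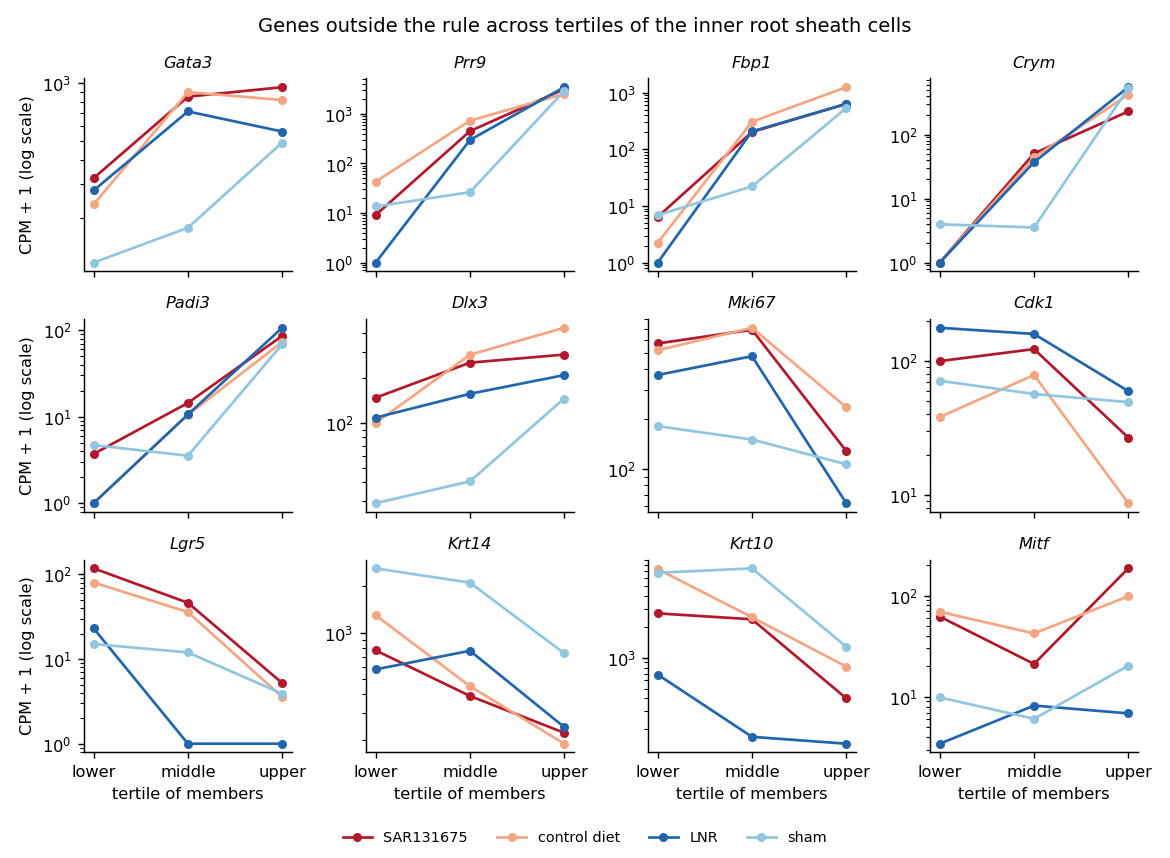
CPM + 1 (y axes, log scale) of 12 genes that did not choose the cells, in the lower, middle and upper tertile of members (x axis, labeled by tertile), with 1 line per library. Prr9, Fbp1, Crym and Padi3 are highest in the upper tertile of all 4 libraries, and Lgr5 and Krt14 are lowest there.

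For the effect of the VEGFR3 inhibitor on these cells, each gene was compared between the summed UMIs of SAR131675 and control diet members. With 1 library per condition this has no test, and a gene is counted when its log2 ratio is 1 or more in size. The intervals of these ratios cover counting error only and take UMIs as independent, although few cells carry many of them. Of 10039 genes with enough UMIs, 144 (1.43%) were higher and 189 (1.88%) lower by this size with SAR131675. None of the 6 member genes reached it, from -0.19 (exact 95% interval -0.26 to -0.12) for Krt28 to 0.88 (0.84 to 0.93) for Tchh, and the sign of several depended on which cells were kept, since without the upper limits on genes and UMIs per cell Krt71 went from 0.35 to -0.92 and Tchh to -0.36. Gata3 was at 684 and 587 CPM (0.22, 0.12 to 0.32) and Dlx3 at 224 and 235 CPM (-0.07, -0.23 to 0.09). Of 25 regulators 1, Prdm1, was higher by this size, from 78 and 4 UMIs. Of 20 cell division genes 0 reached it, with a median log2 ratio of 0.46, and of the Notch and Wnt groups 0 of 8 and 0 of 23.

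The cornified envelope genes were the group with most calls in the diet pair, with 8 of 14 higher, a median log2 ratio of 1.99 beside -0.04 over all genes. Flg was at 242 CPM in SAR131675 members and 20.8 CPM in control diet members (3.52, 3.08 to 4.05), and Hrnr at 155 and 20.8 CPM. With at least 20 UMIs of the 6 genes, 7 of 12 were higher, against 1.57% higher and 1.12% lower over 8467 genes. Markers of fibroblasts moved with them, since 4 of 5, Col1a1, Col1a2, Col3a1 and Lum, were higher by size in that setting (median 3.28), with Col1a1 at 126 and 7.25 CPM. Over all members 2 of 6 fibroblast markers, Col3a1 and Lum, and the 1 immune marker with enough UMIs, Lyz2 (55 and 2 UMIs), were higher, while the summed fibroblast markers were at 1069 and 1064 CPM. Their part in the difference was not tested. The Flg ratio was 0.21 without the upper limits and 0.68 without barcodes of several cell types, so its size depended on which cells were kept. Of 9 epidermal keratins 4 (Krt10, Krt9, Krt2 and Krt1) were lower by size and 0 higher, whereas among members with at least 20 UMIs 2 of 8 (Krt15 and Krt1) were higher and 0 lower. Krt10 was at 1861 and 4258 CPM (-1.19), and its ratio was -0.31 with at least 20 UMIs.

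For LNR against sham, 208 of 7698 genes (2.70%) were higher and 742 (9.64%) lower in members by a log2 ratio of 1 or more. The cell division genes were higher, 11 of 20 by this size, with a median log2 ratio of 1.03 beside 0.04 over all genes. Markers of other cells moved the other way, with 5 of 6 fibroblast, 4 of 5 immune and 4 of 4 erythroid markers and 8 of 9 epidermal keratins lower in LNR members, and with at least 20 UMIs of the 6 genes 5 of 6, 1 of 2, 3 of 3 and 5 of 9. Their part in the differences of the LNR pair was not tested. Mki67 was at 319 CPM in the members of LNR and at 149 CPM in those of sham (1.10, exact 95% interval 0.90 to 1.29), Cdk1 at 135 and 59.1 CPM (1.20, 0.89 to 1.5) and Ube2c at 246 and 117 CPM (1.07, 0.85 to 1.29). Among members with at least 20 UMIs, where 2.48% of 4880 genes were higher and 4.59% lower, 13 of 15 cell division genes were higher, with a median of 1.25, and Mki67 was at 288 and 106 CPM (1.44). The Mki67 ratio lay between 1.02 and 1.44 in all settings tried, none of which split the members by tertile. By the tertile values given above, Mki67 was higher with LNR in the lower and middle tertiles. In the upper tertile it was lower with LNR than with sham. The bounds of the tertiles differ between these libraries, and the part of this in the ratio was not tested. In the diet pair Mki67 was at 466 and 526 CPM. In epidermal keratinocytes it was at 121 and 126 CPM in LNR and sham, side by side.

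Of 25 regulators, 6, Gata3, Lef1, Cux1, Dlx3, Msx2 and Ovol1, were higher by size in LNR members and 3, Barx2, Prdm1 and Sox9, lower. Gata3 was at 515 and 245 CPM (1.07, 0.92 to 1.23) and Dlx3 at 154 and 65.8 CPM (1.23, 0.94 to 1.52). With at least 20 UMIs of the 6 genes these became 0.67 and 0.73, and 0 of 21 regulators were higher by size and 2 lower. The summed fibroblast markers were at 1328 CPM in LNR members and 2745 CPM in sham members, and the immune markers at 70.3 and 308 CPM, and their part in the regulator ratios was not tested. Of the member genes, which chose the cells, Krt73 was at 1563 and 684 CPM (1.19) and Krt28 at 1168 and 631 (0.89), and with at least 20 UMIs these ratios were 0.58 and 0.20. Krt25 was also higher, whereas Krt71 was at 2142 and 2597 CPM, Krt27 at 591 and 724 and Tchh at 2522 and 2727. The median log2 ratio of the 6 was 0.02 over all members and -0.59 with at least 20 UMIs.

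Epidermal RNA was lower in LNR members than in sham members. Of 9 epidermal keratins 8 were lower by size and of 14 cornified envelope genes 11, with medians of -1.80 and -4.19, the second -3.37 when its 3 genes at 0 UMIs in LNR are set to their bound on a floor of 3 UMIs over the LNR members. Krt10 was at 341 and 5382 CPM (-3.98, -4.13 to -3.84), and Flg at 1.71 and 133 CPM. Among members with at least 20 UMIs, Krt10 was still at 158 and 3372 CPM, and 5 of 9 and 8 of 11 genes of these groups were lower. Krt10 of sham members lay near the 4883 CPM of all other sham barcodes. The fibroblast, immune and erythroid markers given above were lower with it, and their part in the difference was not tested. Krt75 was at 55.7 and 217 CPM (-1.95), but at 0.17 on the log2 scale without the upper limits on genes and UMIs and at -2.57 with at least 20 UMIs of the 6 genes. With at least 20 UMIs all 3 sheath and companion keratins tested outside the rule, Krt72, Krt26 and Krt75, were lower by size in LNR, against 1 of 3 over all members.

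**Figure D5:**
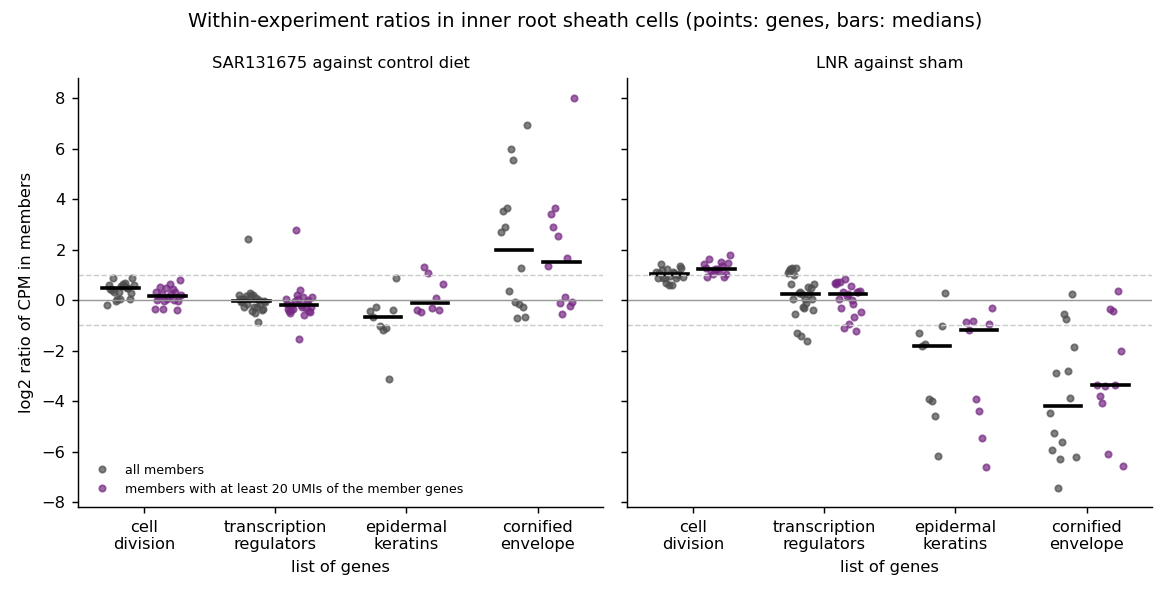
Log2 ratio of CPM in members (y axis) for the genes of 4 lists (x axis), SAR131675 against control diet on the left and LNR against sham on the right, with gray points for all members, purple points for members with at least 20 UMIs of the 6 genes, bars for medians and dashed lines at 1 and -1. Cell division genes center on 1.03 and 1.25 in the LNR pair and on 0.46 and 0.17 in the diet pair.

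Both experiments share no library, so the genes that moved the same way in both can be set side by side. The largest shared rises, ranked by the smaller of both ratios, were Magohb (1.02 in the diet pair and 0.99 in the LNR pair), Cxcl2, Aurkb (0.88 and 1.28), G2e3 (0.88 and 0.90) and Cdk1 (0.87 and 1.20). Aurkb, G2e3 and Cdk1 act in the cell cycle, and Magohb is part of the exon junction complex. The chemokine gene Cxcl2 rested on 1 cell in each treated library, which held 93.2% of its UMIs in SAR131675 members and 80.9% in LNR members. The largest shared falls were Krt9 (-3.13 in the diet pair, and at least 12.1-fold lower in LNR, where it had 0 UMIs against 111 in sham, on the same floor), Enpp2 (-3.05 and -2.55), Cst6 (-2.52 and -4.29), Rgs5 (-2.22 and -2.94) and Htra4 (-4.36 and -2.20). Of these, Krt9, Enpp2, Cst6, Rgs5 and Htra4 each had 1 control diet member with 82.0% or more of that library's UMIs. A single sham member also held 86.5% of the sham Krt9 UMIs and left 15 without it, and 1 LNR member held 85.7% of the 7 Rgs5 UMIs there. The sign of the diet ratio turned for Krt9 (2.07, from 20 and 1 UMIs) and Enpp2 (1.07) without the top member of each library, for Cst6 (1.42) without the upper limits on genes and UMIs, and for Htra4 (1.14) without barcodes of several cell types. With at least 20 UMIs of the 6 genes the LNR ratios were 1.49 for Magohb, 1.79 for Aurkb, 0.89 for G2e3 and 1.16 for Cdk1, and -2.50 for Enpp2, -2.55 for Cst6, -1.86 for Rgs5 and -1.86 for Htra4, while Cxcl2 turned to -0.87.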

How the data were processed

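The matrices that the authors deposited hold unnormalized UMI counts for 33696 features, made with Cell Ranger. The file headers name version 6.1.2 for the LNR pair and 8.0.1 for the diet pair, and the submitters' processing notes name 6.1.2 and GRCm39 for all libraries. Whether intronic reads were counted is not given in the sources used here, so differences between conditions were taken only within an experiment, and the values of the 4 libraries stand side by side without a test between experiments. Barcodes with 200 to 5500 genes, at most 30000 UMIs and at most 10% mitochondrial UMIs were kept. Doublets were left in and no caller was run.

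Classes were compared with edgeR 4.0.16 (R 4.3.3) on counts summed per library, 8 sums per contrast, with the library as a block because both classes come from the same pool of mice and the same run, and 3 such fits were made. Ratios between conditions added 0.5 UMIs, used genes with at least 50 UMIs in both libraries together and have exact conditional 95% intervals. Floors are 3 UMIs over a class or over the members of a library. Each SE is the size of the log2 difference divided by the square root of the F statistic of the edgeR test. The class tests were run on simulated counts with the same dispersion for every gene, and the ratios on simulated Poisson counts. Neither simulation held genes carried by few cells, so neither shows how p-values and intervals behave for such genes. Alternatives included DESeq2 1.42.0. Sums and intervals used Python 3.11.15 with numpy 2.4.6, pandas 2.3.3 and scipy 1.17.1. The members and the gene lists were chosen with earlier results of these data known. Named genes were the member genes, the lists, the 12 largest differences per direction in each contrast at 20 CPM or more, the 5 largest shared rises and falls between conditions with at least 100 UMIs, and the 15 highest ratios to other barcodes. All p-values measure the spread, over these 4 libraries, of the difference between classes or tertiles, with the library as a block. Because the sham was the contralateral limb, LNR and sham may share mice. The 4 libraries may therefore not be independent in mice.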

Additional observations from a re-analysis of the deposited data

Results flagged for a closer look

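The share of inner root sheath cells among kept barcodes had log2 ratios of opposite sign in the 2 experiments, 1.16 for SAR131675 against control diet and -1.43 for LNR against sham. The second was -0.50 (exact 95% interval -1.07 to 0.06) without barcodes of several cell types and is not read as a difference. The difference between these ratios was not tested, since each condition has 1 library. The sham share lay below the share of sham endothelial barcodes that met the same 3-gene rule, at 1.25% against 1.90%. It lay above that of sham immune barcodes, at 0.420%. The part of free RNA in either ratio was not tested.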

How the results depend on the processing

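Counts of called genes and ratios between conditions moved with several settings. Against hair shaft cells, 1146 genes were higher without the filter on low counts. Without the replicate block 170 were higher and 195 lower, with cells thinned to 2000 UMIs 90 and 66, and without barcodes of several cell types 233 and 169. Leaving out 1 library gave 56 to 584 higher and 119 to 481 lower, the lowest without SAR131675, and 96 and 148 without control diet. Against epidermis, 709 were higher and 514 lower without the block and 1160 and 1557 with thinned cells, and leaving out 1 library gave 874 to 2460 and 893 to 2959, with 874 and 893 without SAR131675 and 1041 and 981 without control diet. Between tertiles, 1534 were lower without the filter, 161 were higher and 182 lower without the block, 322 and 364 with at least 4 of the 6 genes, 208 and 154 with thinned cells, 174 and 256 without barcodes of several cell types and 456 and 496 among members over 0.1% divided at their median. Leaving out 1 library gave 273 to 723 and 280 to 973 there, the lowest without SAR131675. Without the block, 35 of 44 named genes against hair shaft cells, 43 of 68 against epidermis and 36 of 64 between tertiles were still called, and with DESeq2 43 of 44, 68 of 68 and 63 of 64. The LNR share ratio was -1.01 with thinned cells, -0.50 without barcodes of several cell types and -0.92 with at least 20 UMIs. Genes higher with SAR131675 numbered 243 without upper limits and 70 thinned, and genes lower 125 with 4 of 6 genes, 52 thinned, 95 with at least 20 UMIs and 108 without the top member of each gene. Genes higher with LNR numbered 49 thinned, 73 without barcodes of several cell types and 121 with at least 20 UMIs, and genes lower 441 with 4 of 6 genes, 126 thinned, 137 without barcodes of several cell types and 224 with at least 20 UMIs. Among the named genes counted at a ratio of 1 or more in size, the sign turned in the diet pair for Cst6 (1.42 without upper limits), Enpp2 (0.32 with 4 of 6 genes, 0.31 with at least 20 UMIs, 1.07 without its top member), Htra4 (1.14 without barcodes of several cell types), Krt9 (2.07 without its top member), Krt1 (0.32 without upper limits, 1.08 with at least 20 UMIs), Krt2 (0.096 with at least 20 UMIs), Sprr1a (-0.79 without upper limits, -1.70 without barcodes of several cell types) and Krt16 (2.45 without upper limits, 1.46 with 4 of 6 genes, 0.92 without barcodes of several cell types, 0.60 with at least 20 UMIs, 0.19 without its top member). In the LNR pair it turned for Krt75 (0.17 without upper limits), Krt73 (-0.14 without barcodes of several cell types), Lor (0.49 in the same setting) and Krt16 (-1.03 without its top member). Ratios under 1 in size could turn as well. Between tertiles Notch3 was at -0.23 when members over 0.1% were divided at their median. Thinning leaves fewer UMIs and fewer genes tested. The cause of the other changes was not tested. The rule for barcodes of several cell types is loose and takes 61.8% to 68.4% of kept barcodes. It needs only 3 UMIs of other-cell markers, which a single cell type can supply. Depth and the 9 to 26 shaft cells per library limit what the shaft contrast can show.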

Other observations

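Mitf, the master regulator of melanocytes, was at 88.2, 65.1, 5.14 and 10.6 CPM in the members of SAR131675, control diet, LNR and sham, and at 79.2, 73.9, 19.0 and 17.8 CPM in all other kept barcodes, above the members in 3 of 4 libraries. In the members with over 4% of their UMIs from the 6 genes it was at 537, 301, 24.5 and 65.4 CPM, and the pigment genes Dct, Pmel, Tyr and Tyrp1 had no UMI in these 33, 14, 2 and 12 cells. Over all members Tyr and Tyrp1 had no UMI, Dct was at 5.93, 4.37, 6.86 and 3.36 CPM and Pmel at 1.52, 1.09, 0 and 0.560 CPM. In hair shaft cells Mitf was at 39.0, 46.3, 5.79 and 0 CPM, and the log2 difference of members to them was 0.87 ± 0.44 (SE, n = 4 libraries, edgeR adjusted p = 0.24). It was higher in members than in epidermis by a log2 difference of 1.37 ± 0.29 (SE, n = 4 libraries, edgeR's quasi-likelihood test, Benjamini-Hochberg adjusted p = 0.012) and higher in the upper than in the lower tertile by 1.29 ± 0.26 (edgeR adjusted p = 0.0085).

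The companion layer keratin Krt75 did not pass the test between tertiles. In the diet pair it was at 392 and 345 CPM in the lower and at 69.0 and 74.3 CPM in the upper tertile, in LNR at 73.4 and 79.2 CPM and in sham at 189 and 382 CPM, in that order. The log2 difference over the 4 libraries was -0.80 ± 0.57 (edgeR adjusted p = 0.37).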
